A study of Homo sapiens with 4 samples.

Results

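The introns described here are first introns of human protein-coding genes, measured by long-read sequencing of RNA still bound to chromatin. They were found by placing the deposited intron tables on the GENCODE 29 annotation and keeping introns that were the first of at least 3 in every transcript that holds them. An intron also had to be at least 60 nt long and to overlap no other first intron of its gene with more junction reads summed over the 4 libraries. At least 5 reads had to lie over it in every library. These steps left 1087 introns in 745 genes, of 209481 unique annotated introns with a read in any library. Of 24966 placed first introns with reads, 24921 met the length limit, 17691 the junction rule and 1087 the read minimum. Junction reads therefore chose the members, and the level of a member against the first introns it displaced is a description. Introns that are first in some transcripts and second in others are not members, so the main first intron of several well-read genes is absent.

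The study compared K562 cells carrying SF3B1 K700E with K562 cells carrying wild-type SF3B1 (WT), with 2 libraries per genotype. K562 is a line from a patient with chronic myeloid leukaemia and has erythroid features. Expression of the modified allele was induced with doxycycline at 1 µg/ml in both genotypes, and cells were harvested after 4 days. No source used here states whether a line is 1 clone or whether replicates were separate cultures. The p-values then reflect only how far these libraries spread, which may be technical. In edgeR's tests that spread was pooled over the introns or genes tested, and is not the spread at a single intron.

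SF3B1 is the largest subunit of the SF3B complex of the U2 snRNP, which recognises the branch point upstream of the 3′ splice site. K700E is a substitution recurrent in myelodysplastic syndromes and is known for use of cryptic 3′ splice sites. First introns are the introns nearest to the promoter, they are on average the longest of a gene, and their 5′ splice site is the first that RNA polymerase II transcribes. Their first exon is often untranslated, and genes with several promoters have several first introns that join to a common second exon. In chromatin-bound RNA a read that carries an exon junction is taken to come from a transcript that was spliced before release.

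For every intron the deposited tables give the reads over it and the reads that carry its junction, and the share of the first that carried the junction is called its splicing efficiency here. A read spliced over another intron that spans the same bases can be counted over the member without carrying its junction. Reads over members numbered 11637 and 25465 in the K700E libraries and 25642 and 35186 in the WT libraries. Reads with a member's junction numbered 4039 and 10662 in K700E and 7080 and 13143 in WT. A member had a median of 8 and 18 reads in K700E and of 15 and 20 in WT, with 5 as the lowest value in every library. The first K700E library is the shallowest. At the limit of the rule, 256 members had exactly 5 reads in their shallowest library and 381 introns just outside had 4. The K700E and WT libraries were all labelled as immortalized epithelial cells. Reads were found for 12 and 12 of 16 haematopoietic and erythroid marker genes in K700E and for 9 and 12 in WT, and for 5 and 5 of 13 epithelial markers in K700E and 4 and 7 in WT. The sum of reads over the best-covered intron of each of the 16 haematopoietic and erythroid marker genes was 127 and 419 in K700E and 348 and 497 in WT, against 9 and 15 in K700E and 28 and 23 in WT for the 13 epithelial ones. Over the 4 libraries together TFRC and PTPRC had most reads in the first list, and KRT18, with 2 and 9 reads in K700E and 14 and 9 in WT, was among the best read of the second. KRT5, CLDN3, CLDN4 and GRHL2 of the epithelial list and GATA2, LYL1 and KLF1 of the haematopoietic list had no read in any library.

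The exon junctions of members that the results turn on are shown from GENCODE 29 transcripts on GRCh38, 5′ to 3′, with the last 15 bases of exon 1 in lower case and the first 15 of exon 2 in capitals. The first set holds introns spliced in nearly every read. Coordinates are those of the intron.
PSAP, chr10:71834506-71851181, minus strand: gcctcctgggcgcggCTCTAGCCGGCCCGG
NUP214, chr9:131125750-131127523, plus strand: gagcgggagatgaagGATTTTCAGTTTAGA
ORC3, chr6:87590193-87594352, plus strand: tcctcgatgtctaagGGTTGCTTTGTTTTT
SF3B1, chr2:197423975-197434971, minus strand: ccaagactcacgaagATATTGAAGCACAGA

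The second set holds the largest differences between genotypes among the 20 members named below for the lowest p, all with at least 10 reads in every library and no overlap between the groups. The first 3 had a lower efficiency in both K700E libraries, the other 2 a higher one.
MDN1, chr6:89803555-89819505, minus strand: ttcttggccaagcagGTGTGGACACCTCAA
HYCC2, chr2:201045594-201071609, minus strand: acagcagggtgacagAATTGGAAAATATTT
RARS2, chr6:87569591-87589921, minus strand: gctattgcttgccagCTTTCCAGAGTGTTG
CDKAL1, chr6:20534575-20535350, plus strand: cttcccgacttctggACTCATCTTTCAAGA
PDE4DIP, chr1:148889530-148889783, plus strand: aaatatctccctgagCACCTCAATGACCTG

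The third set holds alternative first introns of 1 gene, where junctions that share an end show which exon differs. For ADK and MAT2A exon 2 is common, and for DTL exon 1 is.
ADK member, chr10:74176887-74200763, plus strand: catgacgtcagtcagAGAAAATATTCTCTT
ADK other first intron, chr10:74151344-74200763, plus strand: gccgcaagcgctgagAGAAAATATTCTCTT
MAT2A longer member, chr2:85539673-85541082, plus strand: gggctgtggtcgctaATAAGATTTGTGACC
MAT2A shorter member, chr2:85540001-85541082, plus strand: ggccttgcctccaagATAAGATTTGTGACC
DTL member, chr1:212035943-212042992, plus strand: gcgtcctgagaaatgGATGGTCTTCACAAT
DTL other first intron, chr1:212035943-212044659, plus strand: gcgtcctgagaaatgCTCCCAATATGGAAC

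Efficiency was close to all or nothing. Of the 1087 members, 542 had a mean efficiency of 0% in K700E and 510 in WT, and 340 in K700E and 332 in WT lay at 75% or above. Between 25% and under 50% lay 28 members in K700E and 33 in WT. In all, 476 members (43.8%) had no junction read in any library, 446 had one in every library and 38 were spliced in all reads of every library. The mean over members was 33.4% and 35.8% in the K700E libraries and 34.8% and 35.0% in the WT libraries. That is 34.6% ± 1.70 in K700E and 34.9% ± 0.141 in WT (SD, n = 2 each), a difference of -0.267 percentage points (exact two-sided permutation test over libraries, p = 1, with 0.333 the smallest p that 2 against 2 libraries allow). The WT libraries lay between the K700E libraries.

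Most members without a junction read overlapped another intron whose junction was read. For 466 of the 476 such members another annotated intron on the same strand overlapped the member and had junction reads, and for 414 its most-read overlapping junction spanned the whole member. Reads with that other junction, as a percentage of the reads over the member and capped at 100%, averaged 76.2% and 79.2% in the K700E libraries and 80.7% and 77.1% in the WT libraries. Over all 1087 members, the member's own and the most-read other junction together came to 79.8% and 83.8% in K700E and 84.1% and 81.9% in WT on the same scale. These are ratios of 2 counts and not shares, since reads with the other junction need not all be among the reads counted over the member and exceed them at some members. The K700E libraries again did not lie on 1 side of the WT libraries. Junctions whose ends lie within 12 nt of the member's were not taken as different, because the tables do not separate them.

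**Figure D1:**
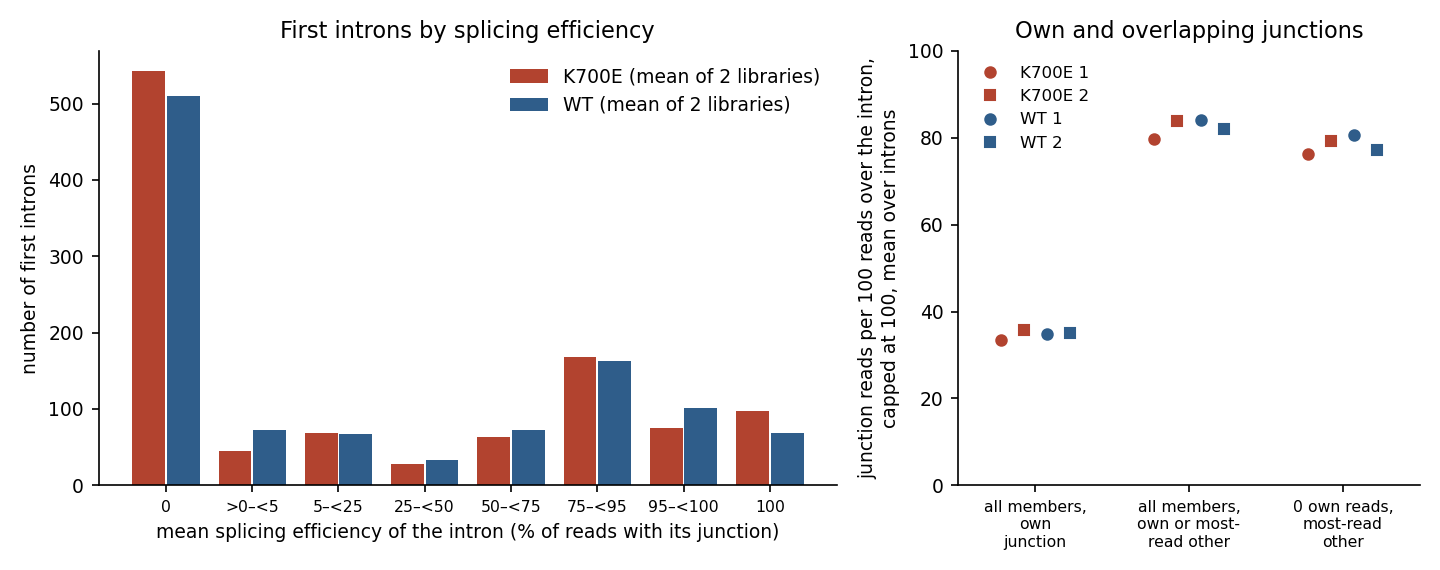
Left, number of first introns (y axis) in each class of mean splicing efficiency in percent (x axis), with K700E and WT bars side by side, each the mean of 2 libraries. Right, mean junction reads per 100 reads over the member, capped at 100, for its own junction, for its own plus the most-read other overlapping junction, and, in the 476 members with 0 own junction reads, for that other junction; points are libraries. Most members lie at 0% or above 75%, and means are 33.4 to 35.8 for the own junction and 79.8 to 84.1 with the other junction added.

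MAT2A, which makes the methyl donor S-adenosylmethionine, shows this in a member with 654 reads in the second WT library, the most over any member in 1 library. Its shorter member had 0 junction reads among 34 and 61 reads in K700E and among 64 and 654 in WT, which allows an efficiency of up to 8.82% and 4.92% in K700E and 4.69% and 0.459% in WT (3 reads of the total; like the intervals below, this covers counting error only). The junction from position 85539379 to 85541082, which shares the 3′ splice site and starts at an exon further upstream, had 33 and 61 reads in K700E and 61 and 653 in WT. That is nearly as many as lay over the member in every library. In CLTC, the clathrin heavy chain, the member at chr17:59671138-59673650 had no junction read among 20 and 52 reads in K700E and 229 and 68 in WT, while an overlapping junction had 17 and 49 reads in K700E and 225 and 68 in WT. ADGRV1, an adhesion receptor, had the best-covered member in the first K700E library, an 80-nt intron with 1 of 106 and 3 of 117 reads spliced in K700E and 10 of 287 and 5 of 395 in WT. A longer junction from the same 5′ splice site had 96 and 111 reads in K700E and 262 and 376 in WT. MACF1, OGT, SND1 and a CPED1 member at chr7:121062897-121064237 also had at least 20 reads in every library and no junction read.

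Other members were spliced in nearly every read. The first intron of PSAP, the precursor of the lysosomal saposins, was spliced in 16 of 16 and 33 of 33 reads in K700E and in 144 of 144 and 323 of 323 reads in WT. NUP214, a nucleoporin of the cytoplasmic face of the pore, had 65 junction reads beside 63 reads and 209 beside 208 in K700E, which were set to 100%, and 90 of 92 and 317 of 321 in WT. The first intron of SF3B1 itself was spliced in 8 of 8 and 42 of 42 reads in K700E and in 35 of 35 and 61 of 62 in WT. INTS7, CLASP1, BLTP2 and POTEE were among the other members with at least 20 reads in every library and the highest WT efficiencies. BLTP2 was lower in K700E, at 19 of 23 and 47 of 50 reads against 111 of 115 and 88 of 92 in WT. That is a difference of -7.78 points, with an unadjusted p of 0.314 in edgeR's test. POTEE belongs to a family of near-identical copies and its reads are uncertain. FTL, the ferritin light chain, was an intermediate case with many reads, at 66.7% and 61.7% in K700E and 59.8% and 57.3% in WT. Both K700E values lay above both WT values there (64.2% ± 3.54 against 58.6% ± 1.73, SD, n = 2 each), although FTL also has processed copies in the genome. Its log2 odds ratio was 0.26 ± 0.47 (SE), with an unadjusted p of 0.579 in edgeR's per-intron test described below. Of all introns in that test, 9.52% had both K700E libraries above both WT libraries.

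Length and place separated members by more than genotype did. Members ran from 71 to 138366 nt with a median of 2592 nt. The mean efficiency of the 217 members of 60 to under 500 nt was 9.13% and 11.2% in K700E and 11.1% and 10.2% in WT. The 273 members of 500 to under 2000 nt reached 23.8% and 26.1% in K700E and 24.9% and 25.1% in WT. The 331 members of 2000 to under 10000 nt reached 43.2% and 45.6% in K700E and 43.4% and 44.6% in WT. At 10000 to under 50000 nt (221 members) the means were 51.5% and 54.3% in K700E and 54.1% and 54.2% in WT, and at 50000 nt or more (45 members) 47.7% and 50.4% in K700E and 49.8% and 48.2% in WT. Within each length class the genotypes overlapped (differences from -1.32 to 0.376 percentage points, exact permutation p = 1 in each). Short members were also the ones most often placed inside another intron. Among members inside no later intron of their gene, the 62 shortest averaged 24.8% and 28.3% in K700E and 27.8% and 27.2% in WT, and the 143 of 10000 to under 50000 nt averaged 70.4% and 73.3% in K700E and 73.2% and 73.3% in WT.

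The extremes of length followed the same split. The shortest members, in IDH1 (71 nt), STXBP2 (72 nt), CDK11A (73 nt), GAPDH (76 nt) and TRAPPC11 (76 nt), had no junction read in K700E, and in WT only IDH1 had any, at 1 of 17 and 2 of 17. At GAPDH a longer junction with the same 3′ splice site had 10 and 35 reads in K700E and 26 and 87 in WT. Reads over that member numbered 12 and 40 in K700E and 31 and 90 in WT. At TRAPPC11 such a junction had 4 and 4 reads in K700E, beside 5 and 6, and 5 and 9 in WT, beside 5 and 11. Another junction at STXBP2 had 1 and 4 reads in K700E, beside 7 and 8, and 2 and 6 in WT, beside 40 and 65. At CDK11A it had 0 and 2 in K700E, beside 9 and 10, and 0 and 1 in WT, beside 14 and 16. Of the 5 longest, JARID2, a cofactor of Polycomb repressive complex 2, was spliced over 127532 nt in 14 of 15 and 47 of 49 reads in K700E and in 51 of 51 and 71 of 74 in WT. FARS2, the mitochondrial phenylalanyl-tRNA synthetase, was spliced in 9 of 9 and 27 of 30 reads in K700E and in 7 of 7 and 26 of 28 in WT over 106889 nt. ARL15 is the exception, with 1 of 20 and 2 of 95 reads spliced in K700E and 1 of 38 and 1 of 48 in WT over 138366 nt. A junction sharing its 3′ splice site and starting at 54310431 carried 9 and 57 reads in K700E and 23 and 28 in WT.

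Position in the gene divided the members further, and these levels are given as a description, since junction reads chose the members. The classes by distance to the gene start and by later introns were chosen after the values were seen. The 452 members whose transcript starts within 1000 nt of the most upstream annotated start of the gene averaged 62.1% and 65.5% in K700E and 64.2% and 64.3% in WT. The 635 members further downstream averaged 13.0% and 14.6% in K700E and 13.8% and 14.1% in WT. The 510 members that lie inside a later intron of the same gene averaged 7.29% and 8.4% in K700E and 8.38% and 8.05% in WT, against 56.5% and 60% in K700E and 58.1% and 58.7% in WT for the 577 that do not. Members held only by noncoding transcripts of these genes (317) averaged 3.10% and 3.75% in K700E and 3.44% and 3.48% in WT. The 391 members upstream of the coding start averaged 40.0% and 42.6% in K700E and 41.0% and 41.9% in WT. The 355 members downstream of it averaged 50.3% and 53.6% in K700E and 52.7% and 52.4% in WT. The members before the coding start were lower by 10.3 to 11.7 percentage points in all 4 libraries, with a mean difference of -10.9. That difference was -4.41 with 1 intron per tied group and -48.2 between medians, and it turned to 13.6 with at least 20 reads in every library, which left 62 members of all kinds. The 24 members with a different place in different transcripts averaged 74.4% and 85.0% in K700E and 81.1% and 80.1% in WT.

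**Figure D2:**
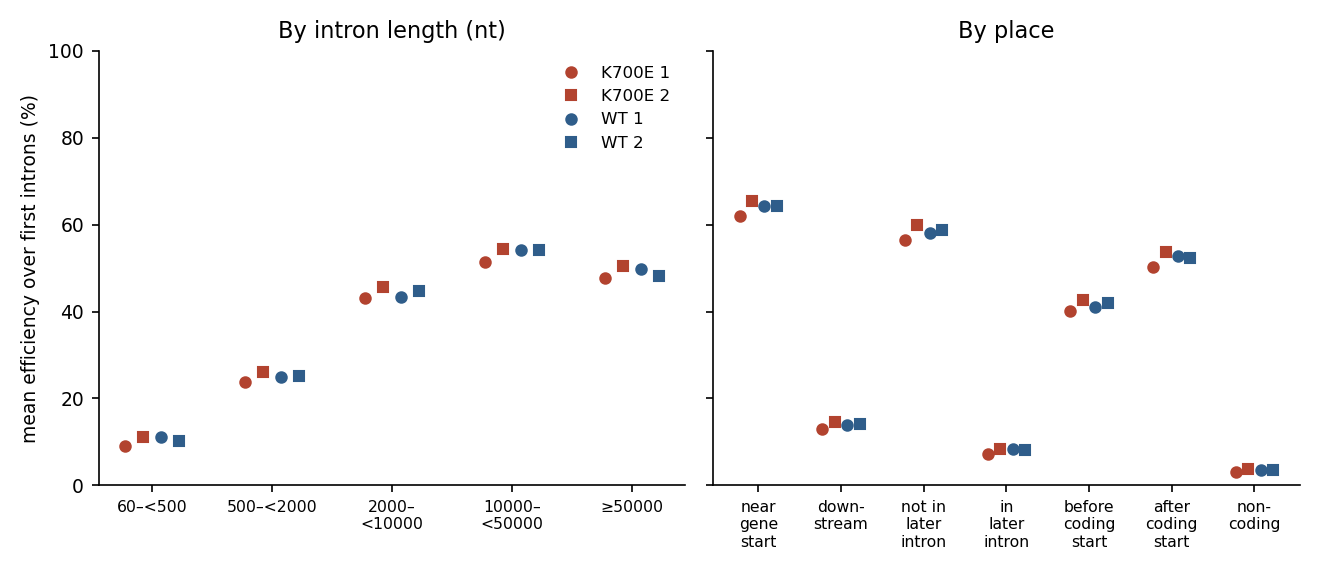
Mean splicing efficiency in percent (y axis) of the members in each length class (left, nt) and each class of place (right); every point is 1 library, circles for replicate 1 and squares for replicate 2. In the classes plotted, means run between 3.10% for members of noncoding transcripts and 65.5% for members near the gene start, and the 4 libraries of a class lie within a few points of each other.

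Second introns were chosen by the same rule, which gave 921. Over all of them efficiency was 37.9% and 39.9% in K700E and 39.3% and 38.6% in WT, above the means of the first introns in every library. Within genes that hold both the order was the opposite. In 461 genes, first introns averaged 47.2% and second introns 40.3% in the first K700E library, 50.1% and 42.6% in the second, 48.9% and 41.6% in the first WT library and 48.9% and 41.1% in the second. The first intron was higher by 6.93 and 7.51 percentage points in K700E and by 7.28 and 7.81 in WT, with a mean of 7.38. This is a description: junction reads chose both sets, and that step kept 17691 of 24921 first introns and 11890 of 13695 second introns. The genotypes differed in this gap by -0.330 points (exact permutation test, p = 0.667). Per gene the direction was mixed: the first intron was higher in 191 and 208 genes in K700E and in 201 and 220 in WT, and lower in 135 and 156 in K700E and in 148 and 154 in WT.

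The gap depended on which reads and genes were counted. When reads with the most-read other overlapping junction were counted as spliced, it was 1.54 and 1.65 points in K700E and 3.31 and 2.17 in WT. With at least 20 reads over every intron, 26 genes were left and the mean gap turned to -5.42. In 257 pairs from 1 transcript, first introns averaged 68.2% and 71.6% in K700E and 69.2% and 70.2% in WT, against 61.6% and 64.3% in K700E and 62.4% and 62.3% in WT for second introns. Where both introns had junction reads and the first was the longer (143 pairs), the first was higher by 6.74 and 6.06 points in K700E and by 6.62 and 7.29 in WT. Where the first was the shorter (72 pairs), the gap was -2.24 and 1.10 points in K700E and -0.753 and 1.05 in WT. In 283 genes with introns 1, 2 and 3, taking for each the intron with most junction reads, means were lower at each later intron, at 58.5% and 62.4%, 50% and 51.7%, and 43.6% and 44.6% in K700E, and at 61.0% and 60.7%, 50.6% and 50.5%, and 44.8% and 44.1% in WT. Over all introns chosen by the rule there was no such order: intron 3 averaged 36.4% in K700E and 36.9% in WT, intron 4 40.2% in K700E and 40.7% in WT, intron 5 50.5% in K700E and 51.7% in WT, and intron 6 57.0% in K700E and 58.8% in WT.

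Read coverage over the first intron relative to the second was slightly higher in both K700E libraries. The median of log2((first reads + 1)/(second reads + 1)) over 461 genes was 0 and -0.029 in K700E and -0.206 and -0.034 in WT, so the groups did not overlap. The difference in this log2 ratio was 0.11 (exact permutation test, p = 0.333, the smallest possible). It rests on the first WT library: it was 0.020 without that library and 0.19 without the second.

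**Figure D3:**
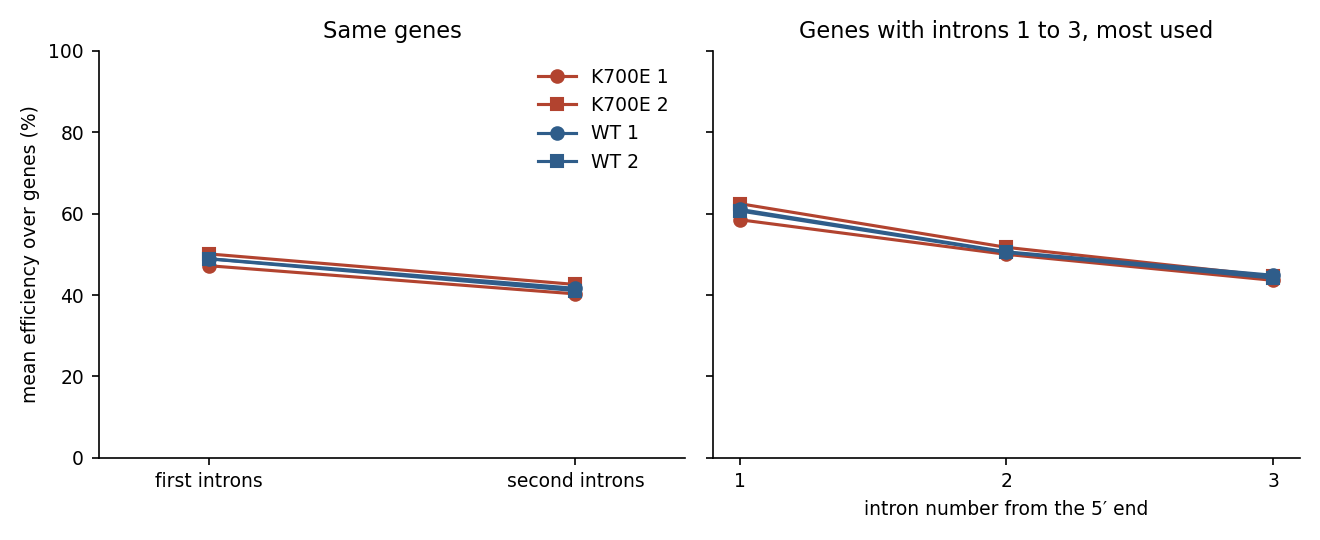
Mean splicing efficiency in percent (y axis) of first and second introns of the same 461 genes (left) and of introns 1 to 3 counted from the 5′ end, those with most junction reads, in 283 genes (right); each line is 1 library. All 4 lines descend, between 47.2% and 50.1% for first introns and between 40.3% and 42.6% for second introns on the left.

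No first intron passed the per-intron test of genotype. Spliced and unspliced reads were fitted with edgeR's quasi-likelihood test across 15616 introns with reads of both kinds, of which 4 (0.0256%) passed at a false discovery rate of 0.05 after Benjamini-Hochberg adjustment. Of 573 members tested, 0 passed as lower (0.0192% of all introns tested) and 0 as higher (0.0064%), and 7 had an unadjusted p under 0.05, where 2.23% of all introns tested did; with DESeq2 0 passed and 7 had such a p, and with limma 0 and 10. In data simulated at these depths over 14646 introns, a change of 4 in log2 odds was called for 1 of 100 introns, so a count of 0 does not show that efficiencies were equal. Mean efficiency was lower in K700E for 296 tested members and higher for 272, with a median difference of -0.541 percentage points, against -2.01 over all introns tested. Both K700E libraries lay below both WT libraries for 87 members (15.2%; 17.7% of all introns tested) and above them for 64 (11.2%; 9.52%). Members tested are those with both spliced and unspliced reads, so the 476 without junction reads are not among them.

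Among members with at least 10 reads in every library and both K700E values below both WT values, MDN1 combined a large difference with many reads. MDN1 is an AAA ATPase that strips assembly factors from the pre-60S ribosomal particle. Its first intron was spliced in 7 of 12 and 15 of 27 reads in K700E and in 29 of 34 and 83 of 101 in WT. That is 56.9% ± 1.96 in K700E against 83.7% ± 2.20 in WT (SD, n = 2 each), a difference of -26.8 points and a log2 odds ratio of -1.90 ± 0.95 (SE), with an unadjusted p of 0.0458 and an adjusted p of 1.00 in edgeR's test. The 95% Wilson interval of the first K700E library ran from 32.0% to 80.7% and that of the second WT library from 73.6% to 88.4%, so these 2 overlap. No other annotated junction overlapping this intron had a read in any library.

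HYCC2 and PI4KA encode parts of 1 complex, in which HYCC2 is an adaptor of the phosphatidylinositol 4-kinase PI4KA at the plasma membrane. The HYCC2 intron was spliced in 7 of 11 and 13 of 19 reads in K700E and in 13 of 14 and 23 of 25 in WT. Other junctions overlapping it had 1 and 2 reads in K700E and 2 and 2 in WT. The PI4KA intron was spliced in 8 of 11 and 12 of 14 reads in K700E and in 30 of 30 and 35 of 37 in WT, a difference of -18.1 points that was -11.6 without the first K700E library. RARS2, the mitochondrial arginyl-tRNA synthetase, was at 4 of 12 and 8 of 22 in K700E and at 8 of 11 and 18 of 33 in WT. MBNL2, a muscleblind splicing regulator, was at 17 of 20 and 56 of 65 in K700E and at 32 of 33 and 56 of 59 in WT. All of these had an adjusted p of 1.00. They were chosen among members whose groups did not overlap, so their separation follows from that choice.

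Further members of this kind were smaller in difference or in depth. COG4 of the Golgi tethering complex was at 10 of 14 and 20 of 23 in K700E and at 15 of 15 and 36 of 39 in WT, with a difference of -17.0 points that was -9.20 without the first K700E library. COPA, the α subunit of the COPI coat, was at 17 of 19 and 35 of 37 in K700E and at 44 of 44 and 49 of 50 in WT, with -6.97 points and -4.41 without that library. XPO5, the exporter of pre-microRNAs, was at 17 of 19 and 11 of 12 in K700E and at 10 of 10 and 28 of 28 in WT. Members in ATP6V0A1 and IDH1 had no junction read in either K700E library and 2 and 3, and 1 and 2, in WT. A junction overlapping the ATP6V0A1 member had 13 and 37 reads in K700E, beside 14 and 40 over the member, and 22 and 42 in WT, beside 27 and 48. For IDH1, the cytosolic isocitrate dehydrogenase, it had 12 and 10 in K700E, beside 13 and 14, and 7 and 12 in WT, beside 17 and 17.

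**Figure D4:**
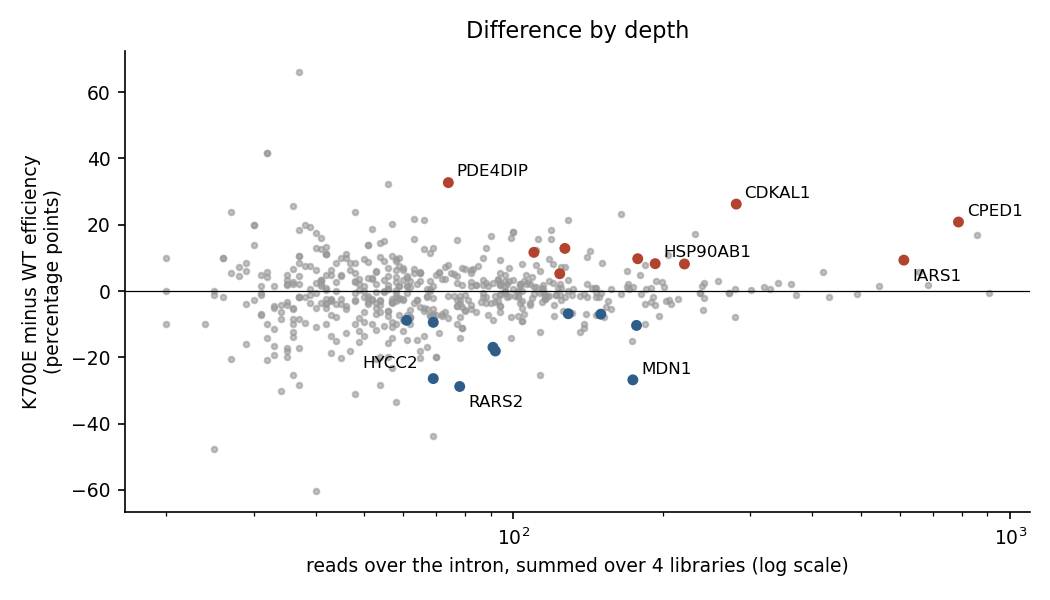
Difference in efficiency, K700E minus WT in percentage points (y axis), against reads summed over the 4 libraries (x axis, log scale) for the 573 tested members; coloured points are the 20 named members, red where K700E was higher and blue where it was lower. The spread narrows with depth; MDN1 lies at -26.8, CDKAL1 at 26.2 and CPED1 at 20.8, and 0 members passed the test.

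In the opposite direction, CDKAL1, a tRNA-modifying methylthiotransferase, was spliced in 38 of 39 and 105 of 126 reads in K700E and in 14 of 26 and 67 of 90 in WT. The difference was 26.2 points and 15.9 without the first WT library. PDE4DIP, a scaffold of the Golgi and centrosome, was at 9 of 13 and 15 of 20 in K700E and at 5 of 11 and 10 of 30 in WT, 72.1% ± 4.08 against 39.4% ± 8.57 (SD, n = 2 each), with an unadjusted p of 0.0399 and an adjusted p of 1.00 in edgeR's test; near-copies of PDE4DIP lie in the same chromosome band and its reads are uncertain. The CPED1 member at chr7:120988913-120989390 was at 65 of 98 and 90 of 150 in K700E and at 47 of 164 and 210 of 375 in WT. Its difference of 20.8 points rests on the first WT library: it was 7.16 without that library and 34.5 without the second.

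Some members reached 100% in both K700E libraries and less in WT. FBXL13, an F-box protein, was at 23 of 23 and 82 of 82 in K700E and at 19 of 22 and 48 of 51 in WT (9.76 points, and 5.88 without the first WT library). SLC7A11, the cystine importer, was at 13 of 13 and 22 junction reads beside 21 reads in K700E, and at 43 of 49 and 24 of 27 in WT. HSP90AB1, the constitutive HSP90, was at 20 beside 19 and 33 of 33 in K700E and at 73 of 81 and 56 of 60 in WT. RICTOR of the mTORC2 kinase complex was at 12 of 12 and 39 of 39 in K700E and at 38 of 43 and 121 of 127 in WT (8.18 points, and 4.72 without the first WT library). In RICTOR a junction from the same 5′ splice site to position 39021137 carried 0 and 0 reads in K700E and 4 and 6 in WT, against 5 and 6 WT reads without the member's junction.

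IARS1, PNPT1 and PTCD3 completed the group that was higher. IARS1, the isoleucyl-tRNA synthetase, was at 33 of 64 and 69 of 119 in K700E and at 48 of 97 and 137 of 331 in WT (9.34 points, 5.29 without the second WT library and 6.13 without the second K700E library). An IARS1 junction with the same 3′ splice site, reaching 92293440, carried 32 and 51 reads in K700E and 66 and 201 in WT, and these 2 junctions together had at least as many reads as lay over the member in every library. PNPT1, the mitochondrial polynucleotide phosphorylase, was at 15 of 15 and 40 of 41 in K700E and at 9 of 11 and 54 of 60 in WT. A PNPT1 junction from the same 5′ splice site carried 0 and 0 reads in K700E and 1 and 4 in WT. PTCD3 of the mitochondrial ribosome had 1 of 14 and 1 of 30 in K700E and 0 of 48 and 0 of 32 in WT, 5.24 points that were 3.33 without the first K700E library. A longer PTCD3 junction with the same 3′ splice site had 3 and 18 reads in K700E and 25 and 16 in WT.

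Choice between first introns was measured in 277 genes with at least 5 junction reads over their first introns in every library. The member carried a mean of 89.7% and 90.4% of these reads in K700E and of 88.3% and 89.8% in WT. This level follows from the choice of members, since the rule kept the most used intron among those that overlap. In genes with several members, such as CPED1 and ATP6V0A1, the most used member was set against the gene's other first introns. The genotypes differed by 1.01 points (exact permutation test, p = 0.667), and by 0.290 without the first WT library, 1.73 without the second and 0.649 without the second K700E library. In edgeR's test on 175 genes 0 passed (0%) and 2 had an unadjusted p under 0.05 (1.14%), which were ADK and SF3B1. These 175 are all the genes tested, so the shares have no separate background. In simulated data over 152 genes, a change of 4 in log2 odds was called for 0 of 17 genes.

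ADK, adenosine kinase, had the lowest p. Its member carried 1 of 5 and 3 of 11 first-intron junction reads in K700E and 10 of 11 and 9 of 12 in WT, and the upstream first intron that joins the same exon 2 carried 4 and 8 in K700E and 1 and 3 in WT. The groups did not overlap, and the log2 odds ratio was -3.71 ± 1.56 (SE; unadjusted p = 0.0183, adjusted p = 0.930 in edgeR's test). Other overlapping junctions had 4 and 8 reads in K700E, where 4 and 9 reads over the ADK member lacked its junction, and 1 and 4 in WT, where 1 and 3 did. In SF3B1 the member carried all 8 and 42 such reads in K700E and 35 of 46 and 61 of 62 in WT. The other SF3B1 junction, chr2:197398582-197398968 in the body of the gene, had 11 and 1 reads in WT, so the difference lies in the first WT library. DTL, a substrate receptor of the CUL4 ubiquitin ligase, used its member in 12 of 12 and 74 of 74 reads in K700E and in 11 of 13 and 27 of 28 in WT. ATP6V0A1, a subunit of the vacuolar proton pump, did so in 30 of 30 and 76 of 76 in K700E and in 15 of 17 and 64 of 67 in WT.

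CPED1 had several well-read members along 1 gene. Its most used, chr7:121076649-121097698, carried 40 of 108 and 262 of 357 first-intron junction reads in K700E (37.0% and 73.4%) and 48 of 98 and 252 of 475 in WT (49.0% and 53.1%). The K700E libraries lay on both sides of the WT libraries. Without the first K700E library CPED1 alone passed, with a log2 odds ratio of 1.33 ± 0.207 (SE) and an adjusted p of 2.02e-07 in edgeR's test. That fit leaves K700E with 1 library, assumed to vary as the WT libraries do.

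**Figure D5:**
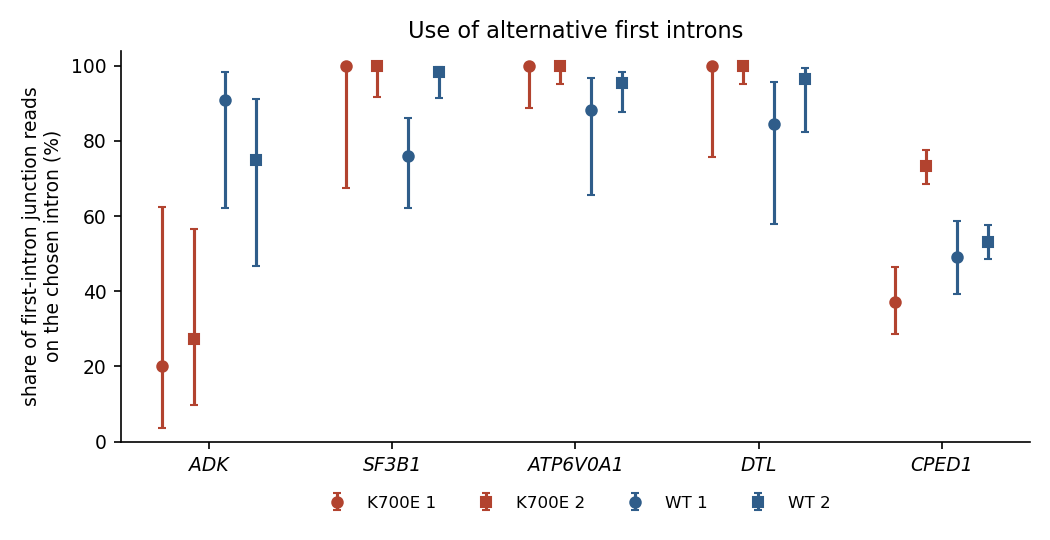
Share in percent of a gene's first-intron junction reads on the member (y axis) in the 5 genes with the lowest p (x axis); points are libraries and bars are 95% Wilson intervals of counting error. ADK lies at 20.0% and 27.3% in K700E, below 90.9% and 75% in WT, while for CPED1 the K700E points lie on both sides of the WT points.

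Some members leave divergent promoters, in 7 gene pairs chosen after the values were seen, of which not all are described. In the pairs of RECQL5 with SAP30BP, HADHA with HADHB and POLR1A with PTCD3, the second gene's members at that promoter had no junction read in any library. RARS2 and ORC3 start 64 nt apart on opposite strands. ORC3, a subunit of the origin recognition complex, was spliced in 24 of 25 and 77 of 78 reads in K700E and in 31 of 31 and 56 of 57 in WT, while RARS2 was at 33.3% and 36.4% in K700E and 72.7% and 54.5% in WT. COG4 and SF3B3, which encodes a partner of SF3B1 in the SF3B complex, start 223 nt apart. SF3B3 was at 95.1% and 97.4% in K700E and at 96.5% and 95.5% in WT, with COG4 at 71.4% and 87.0% in K700E and 100% and 92.3% in WT. INTS7 and DTL, 35 nt apart, were at 100% and 98.5% and at 92.3% and 100% in K700E, and at 96.2% and 100% and at 84.6% and 93.1% in WT.

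By function, no list held a member that passed. The spliceosome list had most members, 31 in 19 genes, of which 16 had no junction read; of 13 tested, 3 were lower and 10 higher, with a median of 0.806 points against -0.541 over all tested members. Chromatin modifiers had 11 tested, 7 lower and 4 higher, with a median of -7.63, and mitosis and cohesin genes 10, 6 lower and 4 higher, at -1.04. Replication and DNA damage genes had 10 members, all with junction reads, 6 lower and 4 higher, at -1.92. Among them WRN, a RecQ helicase, was at 20 of 24 and 56 of 66 in K700E and at 11 of 12 and 46 of 50 in WT. FANCI, of the Fanconi anaemia pathway, was at 56.0% and 48.1% in K700E and at 46.8% and 55.7% in WT. Other junctions overlapping the FANCI member had 13 and 25 reads in K700E, beside 25 and 52 over it. In WT they had 26 and 24, beside 47 and 61. Genes reported as targets of cryptic 3′ splice sites in SF3B1 mutants had 5 tested, 4 lower and 1 higher, at -3.44. TTI1 of these was at 16 of 19 and 50 of 54 in K700E and at 16 of 17 and 59 of 64 in WT. Other junctions overlapping the TTI1 member had 2 and 3 reads in K700E and 2 and 10 in WT.

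The smaller lists had few tested members. RNA polymerase II and elongation genes had 4, 3 lower and 1 higher, at -5.69. Oxidative phosphorylation genes had 4, 3 lower and 1 higher, at -6.24. Erythroid, haem and iron genes had 3, 1 lower and 2 higher, at 0.478. In TFRC, the transferrin receptor, the member had no junction read among 40 and 58 reads in K700E and 3 of 172 and 3 of 162 in WT. This TFRC member is held only by noncoding transcripts and lies inside a later intron. A longer junction with the same 3′ splice site had 19 and 28 reads in K700E and 135 and 134 in WT. Ribosomal protein genes had 4 members in 2 genes and 1 tested, RPL4, at -1.69. Translation factors had 7 members and 1 tested, at 7.88.

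Intron ends could be read for part of the members, from other transcripts whose exons cover them. The first 2 bases were read for 236 members and were GT in 221, GC in 13, AT in 1 and GA in 1. Of 126 read at both ends, 117 were GT-AG and 5 GC-AG. RECQL5, a RecQ helicase gene, held the AT-AC intron, a pair of ends typical of introns removed by the minor spliceosome. Its ends are shown with the first 6 and the last 2 intron bases in capitals, next to the member of IDH1 with the usual ends.
RECQL5 5′ splice site, chr17:75666572-75667043, minus strand: gccggttctgATATCTtagggtgaagagag
RECQL5 3′ splice site: tttactacctttgccttaacctttggccAC
IDH1 5′ splice site, chr2:208253960-208254030, minus strand: tgtctggcagGTACTAaaaacagctaaatt
IDH1 3′ splice site: ttaacacttttattccttgttttgttttAG

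The RECQL5 intron was spliced in 3 of 5 and 6 of 19 reads in K700E and in 10 of 15 and 11 of 17 in WT. The letters CCTTAAC, searched on the transcribed strand in the last 30 bases, were found in 3 of 195 members read (1.54%), which were RECQL5, SND1 and ZNF207. The 5′ splice site matched its consensus at a mean of 6.32 of 9 bases in 157 members with WT efficiency under 50% and at 6.89 of 9 in 19 members at 95% or more. These sites could be read for the minority of members whose ends lie in an annotated exon. Over all members, exon 1 ended in G in 76.1% of those under 50%, in 86.2% at 50 to under 80%, in 85.2% at 80 to under 95% and in 81.1% at 95% or more. With at least 10 reads in every library, the lowest and highest of these classes had 78.0% and 79.7%. Over all members, the median lengths in these classes were 1234, 6636, 5183 and 5706 nt.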

How the data were processed

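Chromatin-bound RNA depleted of polyadenylated and ribosomal RNA was sequenced as long reads from 4 libraries, per the labels' protocols. Per the submitters' processing notes, cutadapt and minimap2 were used with hg38; versions are not stated there. The authors deposited, per annotated intron, 2 raw read counts (all reads over an intron and those carrying its junction) and their ratio, which was not used for tests. No source used here states how reads were assigned. Tables of RNA 3′ end positions were not used here. In-file labels of the K700E tables carry other numbers than their titles; each file was taken for the library that the series record ties it to.

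Rows were placed on GENCODE 29 by transcript, intron number, start and strand (87.3 to 87.6% of rows); duplicate rows of an intron were merged, keeping the larger count where they differed (103 to 142 introns per library). Whole-series read-intron overlaps numbered 459681 and 909621 in K700E and 1346733 and 1185006 in WT. Efficiency is junction reads over reads, and ratios above 1 (22 members) were set to 1. Tied first introns were kept together (257 members). One read can lie over several introns.

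Per-intron tests used edgeR 4.0.16 in R 4.3.3 (quasi-likelihood, negative binomial dispersion 0, no replicate block) over introns with a minimum of 5 reads per library, checked on simulated data. The fit had infinite prior degrees of freedom, with a prior quasi-dispersion of 2.28 for introns and 4.55 for alternative use. Its SE and p-values therefore do not take in how far the libraries spread at an individual intron or gene. Library means were compared by exact permutation. Members, gene lists and tests were chosen with earlier results of these data known. Named members were those past the test, the 10 lower and 10 higher with the lowest p among members with at least 10 reads and no overlap between groups, the 10 with most reads, the 8 lowest and 8 highest in WT with at least 20 reads, the 5 longest and 5 shortest, the 2 best covered per list, the 5 genes with the lowest p for alternative use, and AT-AC introns; some members that this rule names are not reported here. Same-numbered libraries did not deviate together (correlation -0.167 over 6141 introns), and no source ties their numbers. Alternatives were other read minimums, pooled shares, medians, other tools (DESeq2 1.42.0, limma 3.58.1) and leaving out each library.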

Additional observations from a re-analysis of the deposited data

How the results depend on the processing

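The genotype difference in mean efficiency (-0.267 points) turned to 0.0877 with at least 10 reads, 1.76 with at least 20, 5.75 as a pooled share and 0 as a median, and ran from -1.47 to 0.934 with 1 library left out. Under 500 nt it turned to 0.704 (10 reads), 1.41 (20), 2.11 (pooled) and 0 (median), with -1.496 to 0.543 on leaving out a library; at 500 to under 2000 nt to 0.499, 1.91, 6.79 and 0, with -1.21 to 1.06. At 2000 to under 10000 nt (0.376) it was 1.10 (20 reads) and 5.49 (pooled), leaving out a library gave -0.829 to 1.58, and at 10000 to under 50000 nt -2.74 to 0.0938, with 5.14 (20 reads) and 3.18 (pooled). At 50000 nt or more it turned to -0.381 (10 reads), -2.29 (20), -5.52 (pooled), -10.7 (median) and -0.402 (ratios above 1 left out), with -1.36 to 1.42 on leaving out a library. None of these had a p that 2 against 2 libraries could bring under 0.05. Coding place turned to 13.6 and first minus second to -5.42 with at least 20 reads, and first minus second to 0 as a median (7.24 to 7.54 without 1 library). The genotype difference of that gap turned to 2.19 (20 reads), 0.476 (pooled) and 0 (median), with -0.622 to -0.0391 on leaving out a library. The cause of these changes was not tested. With another overlapping junction counted as spliced, an alternative added after seeing the data, the genotype difference was -1.25 and the gap 2.17.

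Members passing numbered 0 with every tool, filter and omission tried. None passed among the 20 named members in 243 alternatives, with a lowest adjusted p of 0.364; their choice by groups that do not overlap fixes their direction. Genes passing for alternative use numbered 0 to 1 over omissions, the 1 being CPED1 without the first K700E library. With the replicate block the mean difference was -0.267 (pairs -1.37 and 0.834) and 0 members and 0 genes passed; with crossed replicate numbers, added after seeing the data, 0 also passed. Depth and the number of libraries both limit these results: 62 of 1087 members had at least 20 reads in every library, and 2 against 2 libraries allow no p under 0.333.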
